A study of Mus musculus with 3 samples.

Results

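The cells described here are the Ly6c2 Ccr2 monocytes of arthritic mouse knee synovium, 2098 cell barcodes of 38722 barcodes of sufficient quality and 38804 in all. A barcode (the RNA of a single droplet, in most cases of a single cell) was a member when it held at least 2 UMIs (unique transcript molecules) of Ly6c2 and at least 1 UMI each of Ccr2, Plac8 and Csf1r. It also had to hold no UMI of Vsig4, Cd163 or Timd4, less than 0.2% of its UMIs from 5 neutrophil genes (Csf3r, Cxcr2, Hdc, Stfa2l1, Asprv1), less than 0.3% from the granule protease genes Mpo, Elane, Prtn3 and Ctsg, and no more than 2 of 5 cycling genes (Mki67, Top2a, Ube2c, Cenpf, Birc5). The members were thus chosen by measured values, and the levels of those 21 genes are given as a description only.

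Classical monocytes are made in the bone marrow, leave it through the chemokine receptor Ccr2 and enter inflamed tissue, where they can become macrophages or dendritic cells. In mice they carry the surface protein Ly6C. In arthritic joints they are known as a source of inflammatory cytokines and of the macrophages that gather in the synovium, which also holds macrophages seeded before the inflammation. Whether the members came from blood cannot be read from these libraries, so the word infiltrating is not used of them here.

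All 3 libraries, replicates 1 to 3, were of 1 group: knee synovium of female wild type C57BL/6 mice, 8 weeks old, with collagen and antibody induced arthritis at its effector phase. The mice had received 100 µg of collagen on day 0, 1 mg of antibodies on day 21 and LPS, a bacterial cell wall product that activates monocytes, on day 22. Each library pooled 2 mice, so 6 mice in all, and no untreated group is analysed here. A p-value below sets a difference within libraries against its spread over these 3 pools and speaks of nothing finer. No value can be set against healthy synovium.

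Ly6c2, the gene that leads the rule, encodes one of the Ly6C proteins and has a near copy in Ly6c1, a gene known from endothelial cells. The first 120 coding bases of each are shown since a read that lies in a stretch shared by both genes could be counted for either. They are from the GENCODE annotation of the GRCm38 assembly, both on chromosome 15 on the minus strand, written 5′ to 3′, with capitals at the bases that differ.
Ly6c2: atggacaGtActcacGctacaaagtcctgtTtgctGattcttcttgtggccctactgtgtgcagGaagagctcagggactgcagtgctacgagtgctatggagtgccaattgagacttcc
Ly6c1: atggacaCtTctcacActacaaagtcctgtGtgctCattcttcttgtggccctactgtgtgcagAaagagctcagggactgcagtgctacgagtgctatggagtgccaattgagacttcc
Of all 396 coding bases 9 differed (97.7% identity), 6 of them in the stretch shown. Of the 723 windows of 100 bases in the 822-base Ly6c2 transcript, 114 were also found in the Ly6c1 transcript, and so were 25 of the 301 windows in its last 400 bases. Ly6c1 stood at 134, 178 and 80.3 CPM (CPM, UMIs of the gene per 1000000 UMIs of the summed cells) in the monocytes of replicates 1, 2 and 3, against 1479, 1467 and 1585 CPM in endothelial-type barcodes (at least 3 UMIs of endothelial genes, no Ptprc, little collagen RNA). Ly6c2 stood at 650.3, 668 and 734 CPM in the monocytes, against 26.1, 60.9 and 37.9 CPM in endothelial-type barcodes. The rule itself fixed Ly6c2 as high in the monocytes. Ly6c1 is reported as uncertain, and its level in the monocytes was 29.5, 24.5 and 37.4 CPM without the mixed profiles described below.

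The monocytes numbered 832 of 11919 quality barcodes in replicate 1, 635 of 11561 in replicate 2 and 631 of 15242 in replicate 3. Their share was 6.98% (95% exact binomial interval 6.53% to 7.45%) in replicate 1, 5.49% (5.08% to 5.92%) in replicate 2 and 4.14% (3.83% to 4.47%) in replicate 3. The mean was 5.54% ± 1.42 (SD, n = 3), and the intervals, which cover counting error only, did not overlap. Ly6c2 alone left 7564 barcodes, Ccr2 took these to 3606, Plac8 to 2829 and Csf1r to 2435. The rule asks for UMIs of 4 genes, so it finds deep barcodes more readily. The median monocyte held 9601, 9725 and 7736 UMIs in the 3 libraries, against 4917, 4742 and 5282 in all quality barcodes. Barcodes were also thinned to 2000 UMIs before the rule was applied, with those under 2000 UMIs left out. The mean share was then 0.941%, of 9193, 8999 and 11829 barcodes in replicates 1, 2 and 3.

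Just inside the Ly6c2 limit lay 504 members with exactly 2 Ly6c2 UMIs, and just outside it 889 barcodes that met every other limit with a single one. Chil3 stood at 499 CPM in those just inside and 432 CPM in those just outside, and C1qa at 678 CPM and 728 CPM. In the 1295 members with 4 or more Ly6c2 UMIs Chil3 was at 820 CPM and C1qa at 534 CPM. Apoe stood at 4070 CPM just inside, 3820 CPM just outside and 3607 CPM in the members with 4 or more. The rule on cycling genes set aside 192 barcodes, 7.04%, 11.7% and 6.66% of those that passed all other limits in replicates 1, 2 and 3, with a median of 25075 UMIs.

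The libraries held 101384374, 99782608 and 116125707 UMIs, and no barcode held under 1000. The labels state 11111, 10668 and 14363 cells, against 11939, 11602 and 15263 barcodes in the files. Barcode names were running numbers, of which 693 occurred in all 3 libraries, so cells shared between libraries could not be counted. Monocytes also held RNA of genes known from other cells. Scrublet, which scores barcodes for their likeness to simulated pairs of cells, gave a score of 0.2 or more to 8.89%, 8.66% and 9.83% of monocytes, against 0% to 4.77% in each library of the macrophage classes used below. Fibroblast markers (6 of 6 detected) summed to 10068 to 11542 CPM in the monocytes, against 60521 to 63672 CPM in fibroblast-type barcodes, and 93, 95 and 94 monocytes took 0.5% or more of their UMIs from Col1a1, Col1a2, Col3a1 and Dcn. Neutrophil markers (10 of 10 detected) summed to 4947 to 14785 CPM in the monocytes, against 2594 to 5669 CPM in fibroblast-type barcodes. In the monocyte sum S100a8 stood at 4206, 5538 and 1888 CPM and S100a9 at 4481, 6310 and 2164 CPM. In fibroblast-type barcodes S100a8 stood at 1379, 1934 and 810 CPM and S100a9 at 1463, 2241 and 985 CPM. Whether the monocytes made these 2 themselves was not tested. Counts of calls are therefore also given with mixed profiles left out, a definition chosen after seeing the data: barcodes with a Scrublet score of 0.2 or more, with 0.5% or more of those collagen and decorin UMIs, with any UMI of Cdh5, Kdr, Emcn, Cd3e or Cd79a, or with the neutrophil genes of the rule at 0.05% or more. This left 482, 340 and 382 monocytes. In these S100a8 stood at 1221, 3051 and 760 CPM and S100a9 at 1132, 2987 and 719 CPM.

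The label was checked against markers, of which Chil3 and Vcan lie outside the rule. Chil3, which encodes a chitinase-like lectin made by classical monocytes, stood at 686, 716 and 730.4 CPM in the monocytes, against 30.7, 56.4 and 28.7 CPM in fibroblast-type and 41.4, 64.6 and 39.4 CPM in endothelial-type barcodes. Every library of the monocytes lay above every library of the other 5 classes. Vcan, the matrix proteoglycan versican, stood at 229, 268 and 216 CPM in the monocytes, against 365, 443 and 302 CPM in fibroblast-type barcodes, which were higher. Endothelial markers (4 of 4 detected) summed to 85.6 to 259 CPM in the monocytes, against 28.5 to 50.7 CPM in fibroblast-type barcodes, T cell markers to 17.5 to 26.7 CPM against 5.55 to 7.13 CPM, and dendritic markers to 8.38 to 16.8 CPM against 3.36 to 4.48 CPM. In endothelial-type barcodes dendritic markers summed to 23.4 to 36.0 CPM, above the monocytes in each library, and T cell markers to 8.01 to 25.5 CPM. By the endothelial-type measure the monocytes were thus below background for dendritic markers in each library. T cell markers stood at 26.7, 17.5 and 22.3 CPM in the monocytes of replicates 1, 2 and 3. The endothelial-type barcodes held 25.5, 25.2 and 8.01 CPM of them, so the monocytes were higher in replicates 1 and 3 and lower in replicate 2. Cd209a, a lectin gene of monocyte-derived dendritic cells, held 24 UMIs in all, in 14 of the 2098 members.

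**Figure D1:**
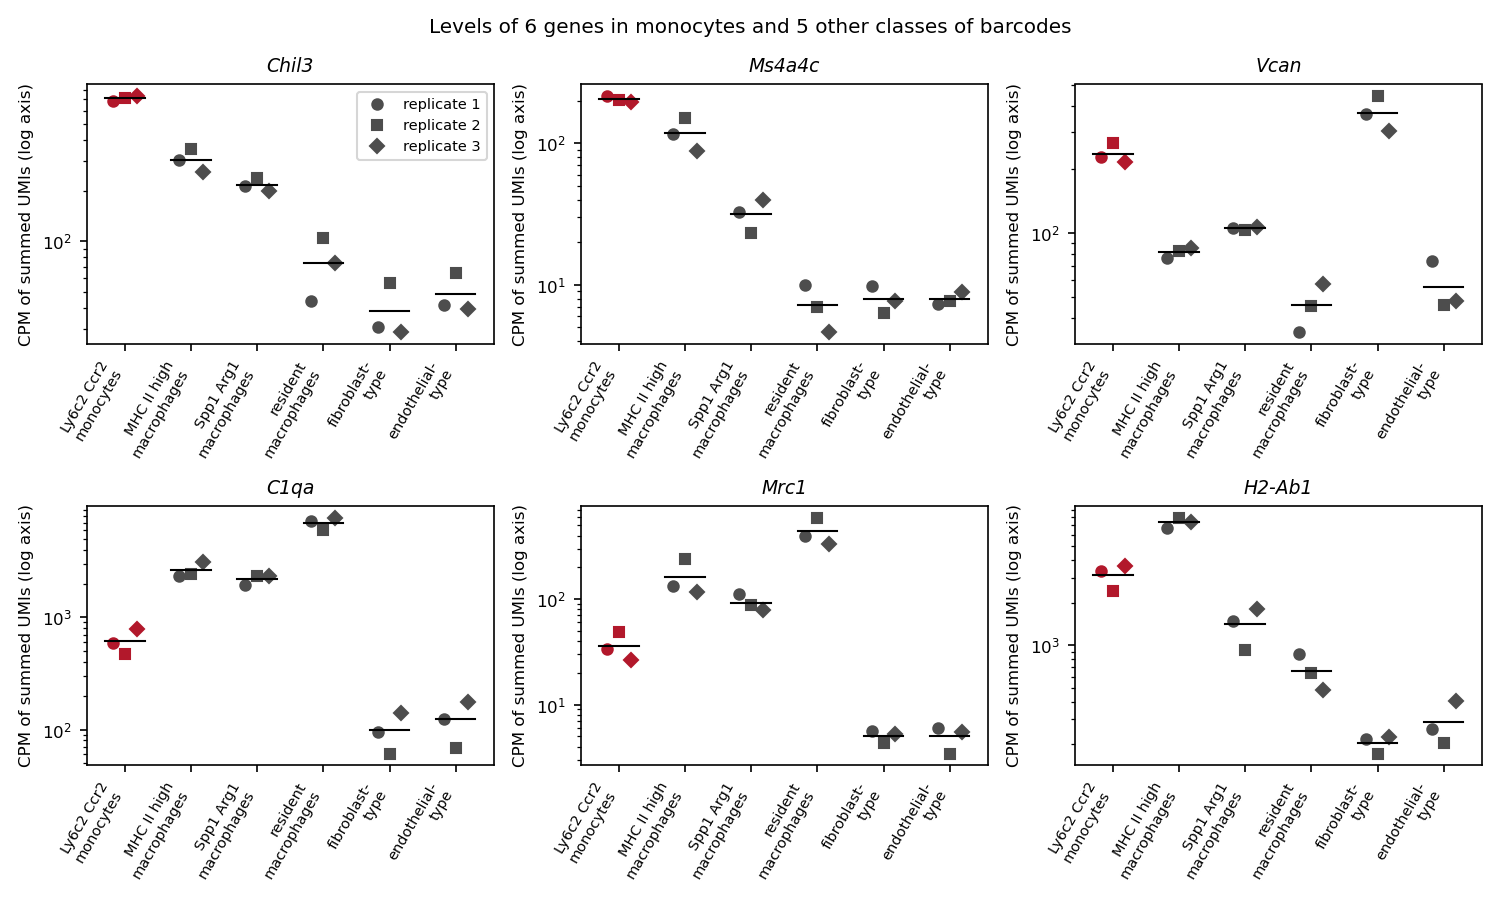
Levels of 6 genes, as CPM of summed UMIs on a log axis, in the monocytes (red) and in 5 other classes of barcodes (grey); each symbol is a library of 2 pooled mice and each line the mean of 3. Chil3 was highest in the monocytes (686, 716 and 730.4 CPM), and C1qa (586, 471 and 787 CPM) was lower there than in all 3 macrophage classes.

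Since free RNA gives UMIs to cells that do not make a gene, shares of cells with a UMI were also taken with each cell thinned to 2000 UMIs. Chil3 was then found in 59.3% ± 0.451 of monocytes, against 8.11% ± 3.38 of fibroblast-type barcodes (SD, n = 3 libraries each), and in 82.3% and 30.2% before thinning. Ms4a4c, a membrane protein gene of the monocyte lineage, was found in 34.0% ± 1.30 of monocytes and 1.73% ± 0.310 of fibroblast-type barcodes (71.9% and 8.21% before thinning). Both genes were thus well above background. Il1b, which encodes interleukin-1β, was found in 54.3% ± 4.31 of monocytes and 30.9% ± 1.32 of fibroblast-type barcodes (87.6% and 74.6% before thinning). The neutrophil granule gene Ngp was found in 15.4% ± 16.1 of monocytes and 16.7% ± 18.7 of fibroblast-type barcodes (42.9% and 41.5%), and was at background by this measure. S100a8 was found in 85.9% ± 10.8 of monocytes and 86.2% ± 12.8 of fibroblast-type barcodes, and was at background by this measure too. Thinning left out 4 monocytes under 2000 UMIs, and 97, 84 and 107 fibroblast-type barcodes.

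Some genes were spread over the members and others lay in few of them. The 5% of members richest in a gene (105 cells) held 24.7% of all Ly6c2 UMIs, 23.4% of Chil3, 22.1% of Ms4a4c and 25.2% of Cxcl2, a neutrophil-attracting chemokine gene. The same measure came to 85.8% for Ngp, 89.3% for Camp and 89.8% for Ltf, genes of neutrophil granule proteins. It was 67.5% for the calprotectin gene S100a8, 62.9% for the collagen gene Col1a1, 81.4% for the lubricin gene Prg4 and 69.7% for the arginase gene Arg1. For Ifitm6, a gene on the list of classical monocyte genes used below, it was 58.0%, and 35.7% of members held a UMI of it. The median member held 5 UMIs of Chil3, 10 of S100a8 and none of Ifitm6, Ngp, Camp or Ltf. Most UMIs of the granule genes, like those of Prg4, thus lay in a small share of the barcodes. With mixed profiles left out Ngp stood at 35.3, 414 and 11.3 CPM, against 373, 639 and 96.1 CPM in all members. Whether monocytes made this RNA was not tested.

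**Figure D2:**
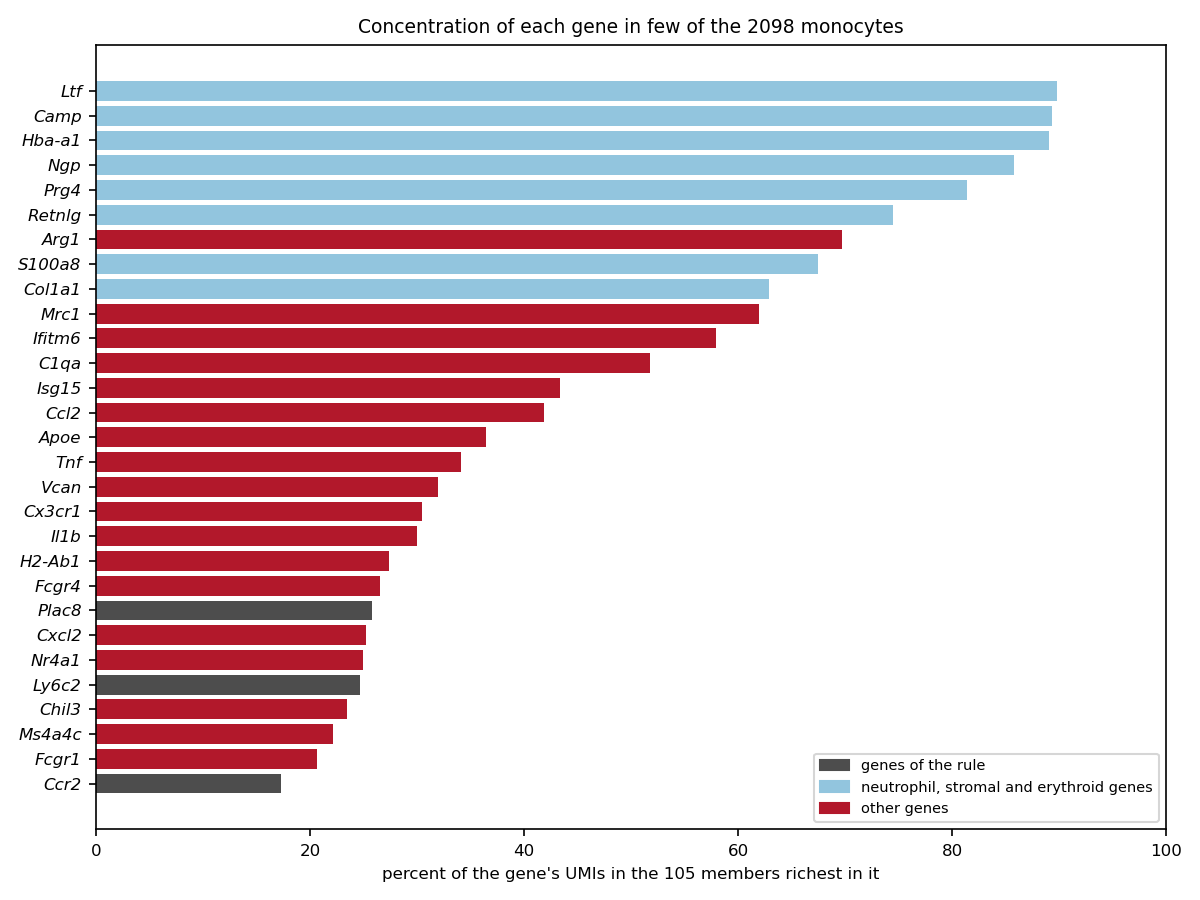
For each gene, the percent of its UMIs held by the 105 of 2098 monocytes that were richest in that gene; bars start at 0. Ngp, Camp and Ltf stood at 85.8%, 89.3% and 89.8%, while Ly6c2, Chil3 and Ms4a4c stood at 24.7%, 23.4% and 22.1%.

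The 3 libraries were close for most genes of the monocytes. Of 3063 genes at 50 CPM or more, the median ratio of the highest to the lowest library was 1.19, and 92 genes (3.0%) reached a ratio of 2. The 5 genes with the largest ratio at 100 CPM or more were Gm43291, Cfd, Hba-a1, Hba-a2 and Hbb-bt. Gm43291 stood at 16.7, 30.9 and 941 CPM in replicates 1, 2 and 3, and at 15.9, 30.1 and 8.38 CPM with mixed profiles left out, so the high value of replicate 3 was in mixed profiles. Cfd, the complement factor D gene of fat cells, stood at 11.6, 77.2 and 299 CPM. The haemoglobin gene Hba-a1 stood at 19.1, 332 and 13.5 CPM, and 89.1% of its UMIs were in 105 members. Ngp stood at 373, 639 and 96.1 CPM in the monocytes and 38.3, 228 and 11.4 CPM in fibroblast-type barcodes, and Arg1 at 249, 127 and 611 CPM and 26.8, 12.0 and 62.8 CPM. For both the libraries kept the same order in monocytes and in fibroblast-type barcodes.

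The monocytes were then compared with 3 classes of macrophages cut from the same libraries, none of which held a Ly6c2 UMI. MHC class II high macrophages (293, 228 and 398 cells) held Adgre1, at least 2 Csf1r UMIs and at least 1% of UMIs from H2-Aa, H2-Ab1, H2-Eb1 and Cd74. Spp1 Arg1 macrophages (205, 72 and 624 cells) held at least 2 Arg1 UMIs and 0.1% or more of UMIs from Spp1. Resident macrophages (37, 29 and 45 cells) held at least 2 of Vsig4, Cd163, Timd4 and Folr2. Each comparison used edgeR's quasi-likelihood test on UMI counts summed per library and class, with the library as a block and Benjamini-Hochberg adjustment over all genes tested, and all adjusted p-values below are from it. A gene was called at an adjusted p under 0.05 and a log2 fold change of at least 1 in size, and genes used in either gate were not counted. The gates were drawn on genes of the same cells, so a gene that goes with a gate gene from cell to cell was bound to differ, and the calls describe how far apart the gates are. The comparisons share the monocytes. Of the genes called, 770 of 781, 623 of 626 and 1302 of 1321 in the 3 comparisons in turn went the same way in all 3 libraries. Statements below that groups did not overlap only describe the genes named and add no support to their calls. The share of all genes without overlap was not counted.

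Against MHC class II high macrophages, the monocytes had more RNA of classical monocyte genes and less of macrophage genes such as those of complement C1q and the mannose receptor gene Mrc1. Of 11467 genes tested, 662 (5.77%) were called higher and 119 (1.04%) lower. With mixed profiles left out 110 (1.13%) were higher and 148 (1.52%) lower, and 65 of the 662 and 80 of the 119 were called in both. The 781 calls (6.81%) numbered 190 without replicate 1, and the higher ones 424 without replicate 2. Ngp, Camp, Ltf, Cd177 and Ifitm6 had the largest positive changes among genes at 50 CPM or more, with Ngp at 2.48 ± 0.30 (log2, SE). Without mixed profiles Ngp stood at 0.60 (adjusted p = 0.07) and was not called, while Camp (1.01), Ltf (1.43), Cd177 (2.28) and Ifitm6 (2.58) were still called.

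Of 12 classical monocyte genes outside the rule, 6 were higher than in the MHC class II high macrophages, all 6 also with mixed profiles left out, and 6 with any single library left out. The median log2 fold change of the list was 1.00, against 0.0041 for all genes. Chil3 stood at 686, 716 and 730.4 CPM in the monocytes, against 303, 357 and 259.5 CPM in the macrophages, a log2 fold change of 1.21 ± 0.09 (SE, adjusted p = 6.3e-05). Every monocyte library lay above every macrophage library. The largest change on the list was that of Ifitm6, of a family of membrane proteins that restrict viruses. It stood at 100.3, 155 and 54.9 CPM against 9.33, 31.5 and 9.22 CPM (2.71 ± 0.19, adjusted p = 4.4e-05). Of the Ifitm6 UMIs of the monocytes 58.0% lay in 105 members, and the median member held 0. The summed level of Ifitm6 is thus not that of a typical member. Vcan (1.53 ± 0.10), the haptoglobin gene Hp and Mgst1 were also called. The coagulation factor X gene F10 stood at 136, 133 and 188 CPM against 57.3, 45.0 and 93.2 CPM (1.24 ± 0.12). Of 9 nonclassical monocyte genes tested 2 were higher and 0 lower, and 1 of the 2 was called also with mixed profiles left out. Over all genes tested 5.77% were higher and 1.04% lower.

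Macrophage maturation genes went the other way: 11 of 19 tested were lower in the monocytes, all 11 also with mixed profiles left out, and 11 or 12 with any library left out, at a list median of -1.32. C1qa, a subunit of the first complement component, stood at 586, 471 and 787 CPM in the monocytes, against 2334, 2417 and 3096 CPM in the macrophages (-2.12 ± 0.08, adjusted p = 4.7e-07). The level in fibroblast-type barcodes was 60.9 to 139.8 CPM, so the summed level of the monocytes lay between the macrophages and background. Of the C1qa UMIs of the monocytes 51.8% lay in 105 of the 2098 members, and the median member held 1. The summed level is thus a mean over unequal cells and not the level of a typical member. Mrc1 stood at 34.0, 48.3 and 26.6 CPM against 132, 239 and 117 CPM (-2.15 ± 0.11), and Ms4a7, a membrane protein gene of tissue macrophages, at 119, 111 and 136 CPM against 620.4, 526 and 595 CPM (-2.26 ± 0.08). The groups did not overlap for these 3 genes. Apoe, the lipid carrier gene, was at -1.51 ± 0.05, and Mertk, a receptor gene for dead cells, and Pf4 were among the others called.

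Outside that list, the chemokine gene Ccl8 stood at 35.9, 25.8 and 49.4 CPM in the monocytes, against 160.3, 585 and 234 CPM in the MHC class II high macrophages (-2.95 ± 0.39), the largest negative change among genes at 50 CPM or more. The zinc finger gene St18 and the inhibitory receptor gene Cd72 followed with -2.46 ± 0.16 and -2.21 ± 0.12. Nr1h3, a nuclear receptor gene of cholesterol export, was at -1.39 ± 0.13 and its known target Abca1 at -1.02 ± 0.09. Il1b stood at 669, 519 and 675 CPM against 514, 479 and 459 CPM and Tnf at 78.5, 69.8 and 102 CPM against 60.7, 63.5 and 65.9 CPM, and neither was called (0.34 ± 0.08 and 0.37 ± 0.11). Of 10 Fc receptor and immune-complex genes edgeR called none, with 7 at an unadjusted p under 0.05, and DESeq2 called none. Of 19 genes of LPS sensing and the NF-kB response edgeR called none, with 4 at an unadjusted p under 0.05, and DESeq2 called none. Over all 11467 genes edgeR called 781 (6.81%), and 3245 had an unadjusted p under 0.05, so lists this short could hold no call at that rate.

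Against Spp1 Arg1 macrophages, the monocytes again had more of classical monocyte genes and less of macrophage genes, and also less RNA of several protease and lipid handling genes and more of 3 MHC class II genes. Of 11885 genes tested, 359 (3.02%) were called higher and 267 (2.25%) lower. With mixed profiles left out 451 (4.47%) were higher and 350 (3.47%) lower, and 230 of the 359 and 208 of the 267 were called in both. The 626 calls (5.27%) numbered 336 without replicate 1 and 1059 without replicate 3, the library with 624 of the 901 macrophages.

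Of the classical monocyte genes, 6 of 12 were higher, all 6 also with mixed profiles left out. Ms4a4c stood at 214, 202 and 194 CPM in the monocytes, against 32.4, 23.4 and 39.6 CPM in the Spp1 Arg1 macrophages (2.46 ± 0.15, adjusted p = 2.5e-05). Every monocyte library lay above every macrophage library. Ifitm6 was at 3.28 ± 0.16 and Chil3 at 1.57 ± 0.11, while Vcan missed the size limit with 0.99 ± 0.10. The orphan receptor gene Gpr141 stood at 60.3, 66.4 and 91.5 CPM against 12.96, 4.67 and 17.5 CPM. Cx3cr1, the fractalkine receptor gene of nonclassical monocytes and many macrophages, stood at 78.0, 75.5 and 56.2 CPM against 29.8, 23.4 and 18.9 CPM (1.37 ± 0.13). It was 1 of 5 higher among 9 nonclassical monocyte genes tested, 4 of them also with mixed profiles left out, while 1 was lower. The median log2 fold change was 1.02 for the nonclassical list and 1.17 for the classical list, so the difference was not particular to classical genes.

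Of 20 macrophage maturation genes, 18 were lower, 17 of them also with mixed profiles left out, and 18 with any library left out. Pf4, a chemokine gene of platelets and some macrophages, stood at 91.2, 112 and 246 CPM in the monocytes, against 1279, 988 and 1297 CPM in the Spp1 Arg1 macrophages (-3.27 ± 0.23). Gpnmb, a lysosomal glycoprotein gene, stood at 29.4, 26.7 and 43.0 CPM against 306, 355 and 173 CPM (-3.19 ± 0.28). The groups did not overlap for either. Of 14 lipid and phagosome genes 9 were lower, 7 of them also with mixed profiles left out, among them Stab1, a scavenger receptor gene (-1.93 ± 0.15), Lpl, Plin2 and Lipa. Of 19 proteases and inhibitors 7 were lower and 1 higher, and 6 of the 7 were lower also with mixed profiles left out. They included the cathepsin genes Ctsb, Ctsl and Ctss and the macrophage elastase gene Mmp12, which stood at 9.40, 9.83 and 9.20 CPM against 98.1, 114 and 71.7 CPM (-3.45 ± 0.15). Hmox1, the gene of a heme-degrading enzyme, stood at 99.4, 63.0 and 124 CPM against 664, 498 and 361 CPM (-2.57 ± 0.24). It was 1 of 4 of 11 arginine and iron genes that were lower, with the ferritin genes Ftl1 and Fth1 and the metal transporter gene Slc11a1. Of the same 11 genes Lcn2, the lipocalin gene, was higher (1.29 ± 0.29), and it was not called with mixed profiles left out (0.59).

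Of 16 chemokine genes 5 were lower (Ccl6, Ccl8, Ccl9, Ccl24 and Ccl7), against 2.25% of all genes tested. Ccl6 stood at 389, 374 and 413 CPM in the monocytes, against 1363, 806 and 1062 CPM in the Spp1 Arg1 macrophages (-1.59 ± 0.13), and Ccl2, the main ligand of Ccr2, at 196, 149.8 and 219 CPM against 316, 190.4 and 275 CPM without a call (-0.62 ± 0.11). On the MHC class II list 3 of 10 genes were higher, and the count was 1 without replicate 2 and 5 without replicate 3. Ciita, the activator of that gene set, stood at 39.9, 39.0 and 41.1 CPM against 7.78, 3.50 and 14.3 CPM (1.83 ± 0.23, adjusted p = 0.00095), and H2-Ab1 at 3359.5, 2398 and 3609 CPM against 1479.7, 928 and 1806 CPM (1.02 ± 0.10). The groups did not overlap for either. Il1b stood at 669, 519 and 675 CPM against 255, 293 and 369.9 CPM and missed the size limit (0.87 ± 0.13), but was called with mixed profiles left out (1.01). Il1rn, the interleukin-1 antagonist gene, stood at 75.4, 58.4 and 106 CPM against 133, 144 and 147 CPM and was not called (-0.99 ± 0.15).

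**Figure D3:**
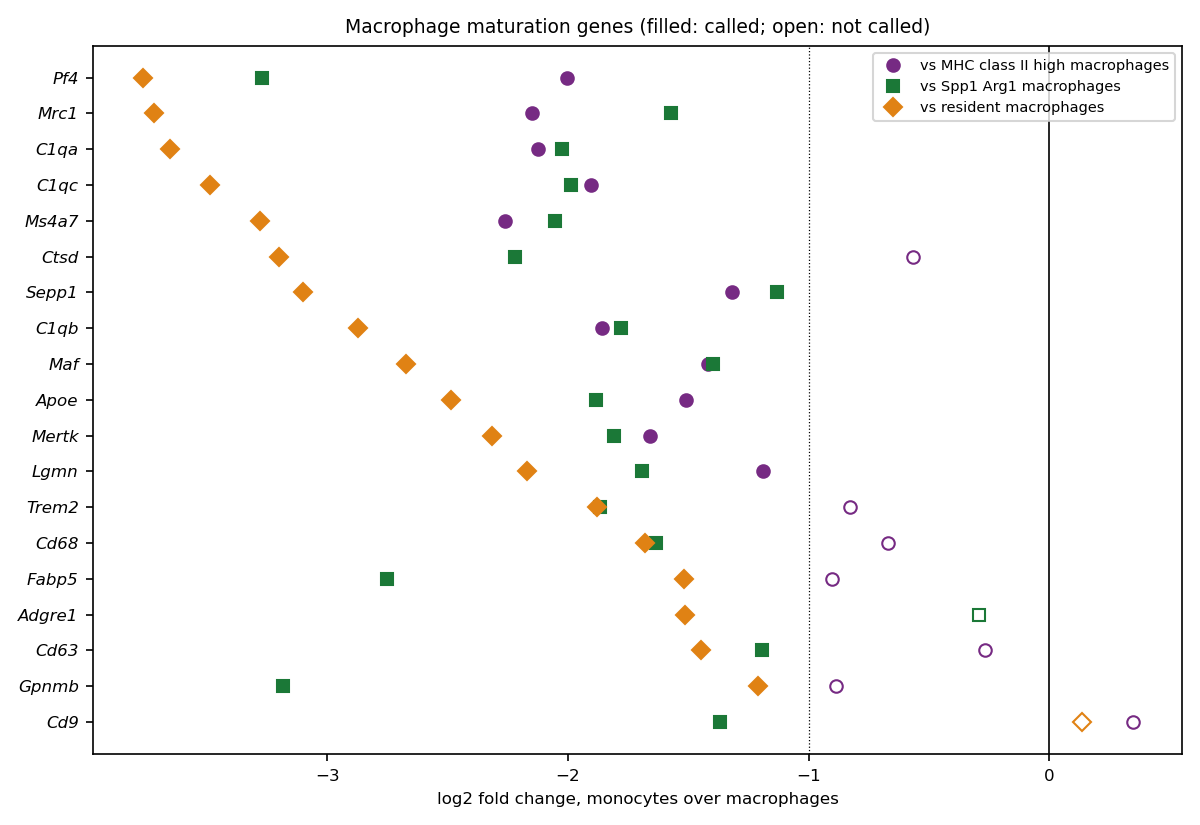
Log2 fold change of 19 macrophage maturation genes, monocytes over each class of macrophages, from edgeR; filled symbols were called and open ones not. Of the genes drawn 11, 18 and 18 were called lower against MHC class II high, Spp1 Arg1 and resident macrophages.

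Against resident macrophages, which were few, the monocytes had less RNA of nearly all the maturation genes and more of MHC class II genes and of genes on the lists of LPS sensing and of the dissociation response. Of 10950 genes tested, 668 (6.10%) were called higher and 653 (5.96%) lower. With mixed profiles left out, where replicate 2 kept 16 resident macrophages and was dropped from the fit, 602 (6.55%) were higher and 668 (7.27%) lower, and 394 higher and 464 lower calls were shared. Without replicate 1 the higher calls numbered 405. In both directions together 1321 genes (12.1%) were called.

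Ms4a4c stood at 214, 202 and 194 CPM in the monocytes, against 10.0, 7.01 and 4.63 CPM in the resident macrophages (4.67 ± 0.29), and Chil3 at 686, 716 and 730.4 CPM against 44.2, 105 and 74.1 CPM (3.21 ± 0.20). The groups were far apart for both, and the level of Chil3 in fibroblast-type barcodes was 28.7 to 56.4 CPM. Of 12 classical monocyte genes 7 were higher, and of 9 nonclassical ones tested 5 were higher and 2 lower. Over all genes tested 6.10% were higher and 5.96% lower. The aspartic protease gene Napsa (217, 212 and 234 CPM against 20.1, 21.0 and 13.9 CPM), Lsr, Spint1 and Dmkn complete the 5 largest positive changes. Of 12 chemoattractant receptor genes 4 were higher and 1 lower, the 4 being Ltb4r1, the leukotriene B4 receptor gene (3.16 ± 0.32), Fpr2, Ccr1 and Ccrl2. On the MHC class II list 8 of 10 genes were higher, all 8 also with mixed profiles left out, and 8 with any library left out. H2-Ab1 stood at 3359.5, 2398 and 3609 CPM against 865, 634 and 484 CPM (2.13 ± 0.16).

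Of 19 genes of LPS sensing and the NF-kB response, 8 were higher and none lower, all 8 also with mixed profiles left out; the list's median was 0.94, against 0.039 for all genes. The inflammasome gene Nlrp3 stood at 87.3, 75.6 and 105 CPM in the monocytes, against 24.1, 21.0 and 30.1 CPM in the resident macrophages (1.71 ± 0.24). Il1b stood at 669, 519 and 675 CPM against 173, 179 and 317 CPM (1.39 ± 0.17, adjusted p = 9.6e-07) and Tnf at 78.5, 69.8 and 102 CPM against 34.1, 24.5 and 20.8 CPM (1.51 ± 0.25, adjusted p = 7.7e-05). Osm, the oncostatin M gene, stood at 39.7, 40.5 and 46.2 CPM against 10.0, 14.0 and 9.26 CPM (1.85 ± 0.34). The groups did not overlap for these 4 genes, and the level of Il1b in fibroblast-type barcodes was 199, 179 and 184 CPM, no lower than that of resident macrophages in replicates 1 and 2. Of 15 cytokine and antagonist genes 4 were higher and 2 lower, of 15 chemokine genes 3 were higher and 3 lower, and of 18 interferon-stimulated genes 2 were higher and 2 lower. Over all genes tested 6.10% were higher and 5.96% lower, so the interferon-stimulated counts are not read as a difference of that list. Cxcl2 and Cxcl1, genes of ligands of the neutrophil receptor Cxcr2, were at 1.42 ± 0.15 and 1.72 ± 0.28. Of 14 genes that tissue dissociation is known to induce, 9 were also higher, 8 of them with mixed profiles left out too, with Atf3 at 125, 92.8 and 132 CPM against 40.1, 14.0 and 20.8 CPM; their part in the inflammatory genes was not tested. Klf4, a transcription factor gene of monocytes and also an early response gene, was at 1.98 ± 0.23.

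Of 20 macrophage maturation genes, 19 were lower, all 19 also with mixed profiles left out, and 19 with any library left out. C1qa stood at 586, 471 and 787 CPM in the monocytes, against 7164, 6060.2 and 7715 CPM in the resident macrophages (-3.65 ± 0.15). The groups did not overlap. Ccl8 stood at 35.9, 25.8 and 49.4 CPM against 4819, 6179 and 3419.7 CPM (-7.14 ± 0.25). Cd209f, a C-type lectin gene, stood at 0.294, 0 and 0.493 CPM against 46.2, 319 and 60.2 CPM, and S100b at 4.80, 2.997 and 3.12 CPM against 132, 228 and 132 CPM. Cxcl13, a B cell chemokine gene, and Npl complete the 5 largest negative changes. Of 14 complement and coagulation genes 5 were lower, among them C4b (-2.67 ± 0.16), and 3 higher, with F10 at 3.02 ± 0.28. Over all genes tested 5.96% were lower and 6.10% higher. Fcgrt, the neonatal Fc receptor gene, stood at 68.9, 75.5 and 87.4 CPM against 504, 834 and 597 CPM and was the only gene called of the 10 Fc receptor and immune-complex genes. Igf1 was at -1.63 ± 0.19, and at -3.65 with mixed profiles left out.

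**Figure D4:**
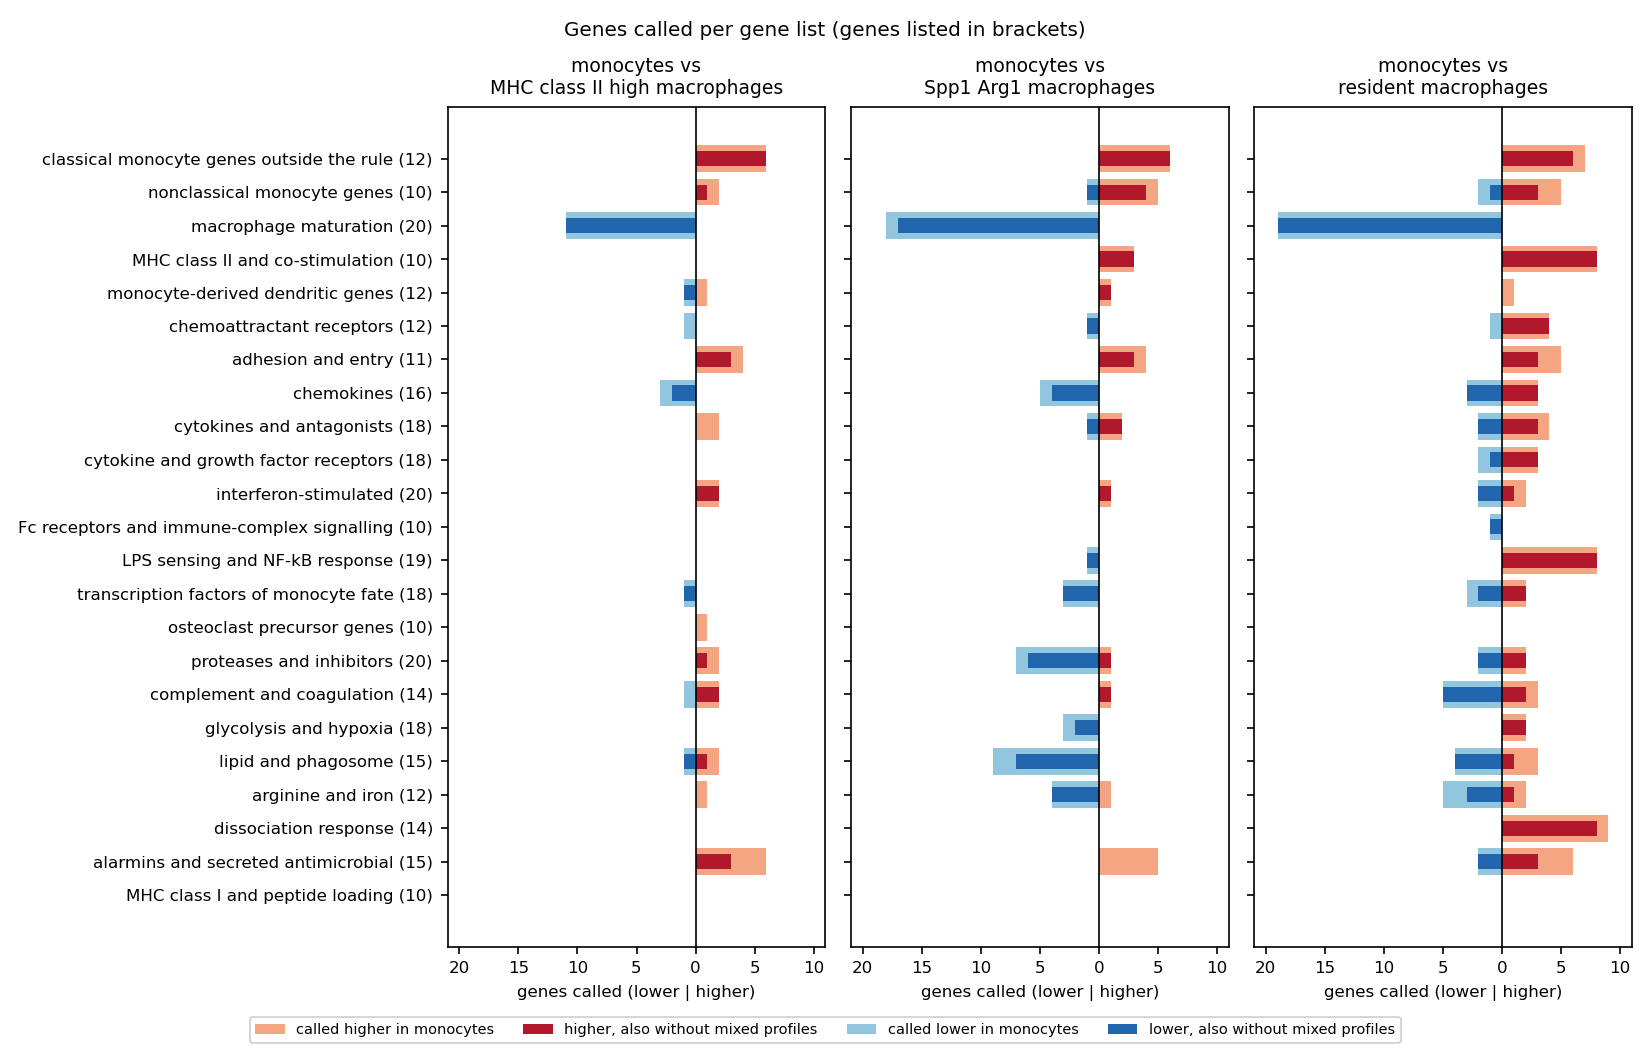
Genes called per list by edgeR in the 3 comparisons, higher or lower in the monocytes, with light bars for all members and dark bars for calls also made with mixed profiles left out. The maturation list has the longest bar in each panel (11, 18 and 19 lower), and the alarmin list holds 6, 5 and 6 higher calls, of which 3, 0 and 3 are dark.

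Within the monocytes, cells were ranked by Ly6c2 inside 5 bins of depth per library, and the upper and lower terciles were compared (275, 210 and 210 cells each). The upper tercile held a median of 13 Ly6c2 UMIs and the lower tercile 2, at a median depth of 9133 and 8992 UMIs. The lower tercile held 2 to 4 Ly6c2 UMIs per cell and so lay at the edge of the rule. Since the cut was made on a gene of the rule, a gene that goes with Ly6c2 from cell to cell was bound to differ. The calls describe how members vary along Ly6c2 and are no support for the rule. Genes called higher in the upper tercile included Ifitm6 and the granule gene Ngp, and genes called lower included Prg4; of these 3, Ifitm6 was also called with mixed profiles left out. Of 10567 genes, 20 (0.189%) were higher and 114 (1.08%) lower by the same test, and the 134 calls (1.27%) numbered 400 without replicate 1, 37 without replicate 3 and 28 without the library as a block. With mixed profiles left out 8 genes (0.104%) were higher and 17 (0.222%) lower, and 3 of each direction were called in both, among them Ifitm6 and Wfdc21 higher, and Clu, Cbr2 and Ttc3 lower. Wfdc21, Cbr2 and Ttc3 were named after their values were seen.

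Ifitm6 stood at 195, 273 and 80.9 CPM in the upper tercile, against 37.2, 81.0 and 29.3 CPM in the lower tercile (1.94 ± 0.15, adjusted p = 0.00096, and 1.04 with mixed profiles left out). In each library it was higher in the upper tercile. Chil3 stood at 772, 927 and 953 CPM against 559, 529 and 603 CPM, which passed the test but not the size limit (0.67 ± 0.07, adjusted p = 0.0028). C1qa stood at 475, 400.1 and 711 CPM against 686, 616 and 799 CPM (-0.42 ± 0.09, and -0.97 with mixed profiles left out). Of the 20 macrophage maturation genes 1, Pf4, was lower (-1.16 ± 0.14), against 1.08% of all genes tested, and Pf4 was not called with mixed profiles left out. Then 2 others of the 20, Mrc1 and Gpnmb, were called lower, and the list median was -0.36, against -0.25 with all members; both genes are named after their values were seen.

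Ngp stood at 853, 1107 and 241 CPM in the upper tercile, against 42.0, 275 and 19.9 CPM in the lower tercile (3.22 ± 0.38, adjusted p = 0.0037), and at 0.82 on the log2 scale with mixed profiles left out, where it was not called. Camp (3.05 ± 0.32), Ltf (2.37 ± 0.43) and Retnlg (2.04 ± 0.14) were also higher. Without mixed profiles Camp stood at 0.97 (adjusted p = 2e-06) and Retnlg at 0.69 (adjusted p = 0.00026), which like Ngp (adjusted p = 2.1e-05) passed the test and missed the size limit, while Ltf stood at -0.0042. On the lower side Prg4 stood at 1168, 777 and 874 CPM against 3453, 1964 and 2218 CPM (-1.39 ± 0.06), and at -0.029 with mixed profiles left out. Ly6c1, the uncertain near copy, stood at 92.9, 78.5 and 58.1 CPM against 178, 221 and 128 CPM (-1.16 ± 0.11), and at 0.31 with mixed profiles left out. Clu, the clusterin gene, was lower with both (-1.47 ± 0.21 and -1.25), and Plpp3, Col18a1 and 2200002D01Rik were the other members of the 5 largest negative changes.

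**Figure D5:**
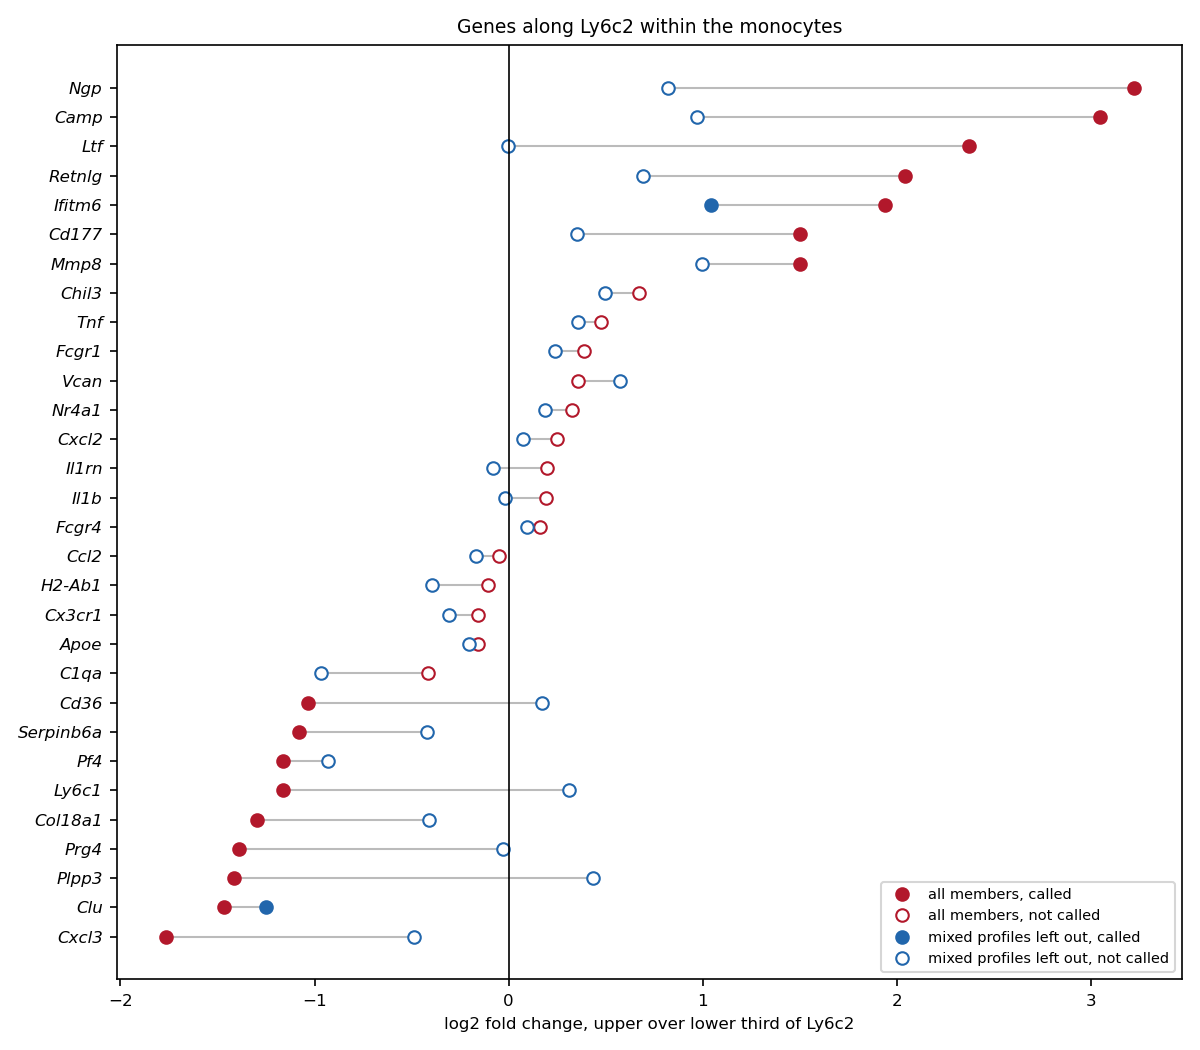
Log2 fold change of named genes, upper over lower tercile of Ly6c2 among the monocytes, for all members and with mixed profiles left out; filled symbols were called and open ones not. Ngp stood at 3.22 ± 0.38 with all members and 0.82 with mixed profiles left out, and Ifitm6 at 1.94 ± 0.15 and 1.04.

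Of 15 cytokine and antagonist genes edgeR called none between the terciles, with 3 at an unadjusted p under 0.05, and DESeq2 called none. Over all 10567 genes edgeR called 134 (1.27%), and 2050 had an unadjusted p under 0.05. At that rate a list this short would often hold no call, so its absence says little about these genes. Il1b stood at 675, 499 and 793 CPM in the upper tercile, against 683, 479 and 575 CPM in the lower tercile (0.19 ± 0.09, adjusted p = 0.3). Tnf stood at 85.4, 74.4 and 131 CPM against 65.5, 62.4 and 79.5 CPM (0.48 ± 0.11, adjusted p = 0.048). Tnf was higher in the upper tercile of all 3 libraries and Il1b in replicates 2 and 3, and neither reached the size limit. Of 10 MHC class II and co-stimulation genes edgeR called none, with 2 at an unadjusted p under 0.05, and DESeq2 called none. H2-Ab1 stood at 2991, 2315 and 3559.9 CPM against 3514, 2641 and 3503 CPM (-0.11 ± 0.05). Cx3cr1 and Nr4a1, genes of the passage to nonclassical monocytes, were at -0.16 ± 0.11 and 0.33 ± 0.08, neither of them called.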

How the data were processed

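Single-cell RNA libraries of mouse knee synovium were measured as counts of UMIs per gene and barcode, deposited by the authors as raw whole-number counts with PISA 1.0 named in the file headers. GRCm39, Seurat 3.0.2 and R 3.6 come from the submitters' processing notes, while aligner and gene annotation are not stated there. The members, gates and 23 gene lists were chosen with earlier results of these data known.

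Quality barcodes had 200 genes or more and no more than 20% mitochondrial UMIs, with no other doublet removal. UMIs of each class were summed per library where it held at least 20 cells. The sums were tested two-sided with edgeR 4.0.16 (limma 3.58.1, R 4.3.3), after filterByExpr and TMM scaling, with Benjamini-Hochberg adjustment. The library was a block because the classes of a library come from the same pool of mice. DESeq2 1.42.0 was an alternative, as were other scaling, no filter, no block, thinning, other gates and leaving out each library. Scrublet ran in scanpy 1.11.5 with an expected rate of 6%. The edgeR test was run on simulated data with known changes in each of the 4 comparisons. Of 50 genes changed 2-fold, which is the size limit itself, it called 20, 26, 24 and 24 in the MHC class II high, Spp1 Arg1, resident and tercile comparisons. It called all 50 changed 3-fold in each, with 4, 2, 5 and 1 false calls. The simulated spread was the same for all genes and held no effect of library, so these counts do not carry over to the real data. CPM are UMIs per 1000000 of the sum and are not divided by length. Named genes were a fixed set, the called gene with the largest change per list, direction and comparison at 20 CPM or more, and the 5 largest changes in each direction at 50 CPM or more. Some genes of the lists are counted in the totals but not reported here by name.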

Additional observations from a re-analysis of the deposited data

How the results depend on the processing

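The mean share of monocytes was 7.90% with at least 1 Ly6c2 UMI, 3.43% with at least 4 and 3.16% with mixed profiles left out, against 5.54%. It was 0.941% with barcodes thinned to 2000 UMIs first and those under 2000 UMIs left out. Leaving out a library gave 4.82% to 6.24%. Against MHC class II high macrophages the 781 calls (662 higher) numbered 491 (389) with DESeq2, 265 (141) with cells thinned to 2000 UMIs, 483 (337) with at least 4 Ly6c2 UMIs and 258 (110) with mixed profiles left out. Leaving out a library gave 190 to 1115 calls, 117 to 955 higher and 73 to 160 lower. Against Spp1 Arg1 macrophages leaving out a library gave 336 to 1059 calls (626 with all) and 156 to 695 higher. Against resident macrophages thinning gave 711 calls (1321 without it), 371 higher and 340 lower, DESeq2 400 higher, and leaving out a library 405 to 643 higher.

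Between the Ly6c2 terciles the 134 calls numbered 77 with DESeq2 (63 lower), 28 with thinning (10 lower), 358 without Scrublet scores of 0.2 or more (334 lower), 84 with neutrophil genes under 0.05% (9 higher, 75 lower), 37 when members were cut at the middle instead (13 higher, 24 lower) and 25 with mixed profiles left out (8 higher, 17 lower). No filter beyond 1 count gave 33 higher. Leaving out a library gave 37 to 400 calls, 14 to 37 higher and 23 to 363 lower. The replicate block pairs classes of the same pool of mice; without it 28 genes were called between the terciles, 1 higher and 27 lower.

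With mixed profiles left out 8 named values that had a call changed sign: against MHC class II high macrophages Fscn1 (-0.11) and Igf1 (-0.087), against resident macrophages Ly6c1 (-0.32) and Ngp (-0.14), and between the terciles Cd36 (0.17), Ltf (-0.0042), Ly6c1 (0.31) and Plpp3 (0.43). Under that setting 23 further named values lost their call without a change of sign and 3 gained one. Without the block 24 lost their call, and without replicates 1, 2 and 3 in turn 13, 10 and 6 lost it. The cause of these changes was not tested. Resident macrophages numbered only 29 to 45 cells a library.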
